A study of Mus musculus with 71 samples.

Results

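The comparison covers the treatment effect of STM2457, an inhibitor of the m6A methyltransferase Mettl3, after 7, 7.5 and 8.3 h of exposure. It uses every library of the uridine chase times 1, 1.5 and 2.3 h, which is 24 of the 71 libraries of the series, 12 with STM2457 and 12 with the solvent DMSO, and 4 libraries per treatment at each time. All 24 came from male mouse embryonic stem cells (mESC), lines derived from the blastocyst and here kept in medium with inhibitors of Mek and Gsk3 and with LIF. In both groups the RNA had been labelled with 100 µM 4-thiouridine (s4U) for 24 h with fresh medium every 3 h, the label was then chased with uridine, and 20 µM STM2457 or DMSO was present from 6 h before the chase onwards, so that treatment time is chase time plus 6 h. The study's methods call its replicates independent biological ones, but the labels only number them 1 to 4 and name no culture, so p-values measure the spread between these libraries, which may be partly technical. The quantity compared is the number of reads per gene on its 3′ UTR windows, given as CPM (reads of the gene scaled to the size of the library) or as the log2 ratio of STM2457 to DMSO. It reflects the relative level of each transcript, and a change in the total RNA of the cells would not be seen.

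N6-methyladenosine (m6A) is the most common internal modification of messenger RNA. A writer complex with Mettl3 as its catalytic subunit places it in DRACH sequences, mainly in long internal exons, around stop codons and in 3′ UTRs, and YTH-domain proteins read it. In mESC its best known role is to hasten the decay of the transcripts that carry it, among them transcripts of pluripotency factors.

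Between 4756832 and 6804970 reads were counted per library (median 5759764), so that a level of 1 CPM rests on a handful of reads, which were not collapsed by molecular identifiers. Defining markers of mESC were present throughout. Pou5f1 was found at 750.4, 838 and 930.1 CPM (lowest, median and highest of the 12 libraries) in DMSO and at 634, 841 and 889.9 CPM in STM2457, and Nanog at 142, 198 and 313 and 182, 226 and 450.2 CPM. Sox2 was not analysed here. Summed levels of the markers of primitive endoderm (6 genes) reached at most 9.99 CPM in a library, those of fibroblast feeder cells (8 genes, Col3a1 and Postn without a read) at most 28.3 CPM, those of 2-cell-like cells (7 genes, 3 without a read) at most 3.11 CPM and those of neuroectoderm (2 of 6 genes measured) at most 1.04 CPM. The 6 mesoderm markers summed to 13.7 to 51.3 CPM in DMSO and 15.0 to 40.8 CPM in STM2457, led by T, and the 6 trophoblast markers to 18.7 to 39.1 and 21.7 to 44.4 CPM, led by Cdx2. In bulk RNA, fewer cells of a type and less RNA per cell cannot be told apart.

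One axis linked to GC content ran through the libraries. Its source was not tested, and the labels name no batch. The GC gap of a library was defined as the median deviation of the quartile of genes with the highest GC content minus that of the quartile with the lowest (log2, genes of at least 20 CPM), and it followed the first principal component of the 24 libraries (r = 0.99 over 24 libraries that share their genes, 60.7% of the variance of 6243 genes). At 7 h it spread from −0.65 to 0.22 in DMSO and from −0.88 to 0.09 in STM2457, and at 8.3 h from 0.18 to 0.22 and from 0.10 to 0.31. At 7.5 h the treatments did not overlap, with −0.27 to 0.04 in DMSO and 0.24 to 0.32 in STM2457. The second component (10.5% of the variance) placed every STM2457 library above every DMSO library. Its correlation with the GC gap was −0.03. Components are uncorrelated by construction and the first followed the GC gap, so a value near 0 was fixed in advance. Because the axis and the treatment cannot be told apart at 7.5 h, values with the GC gap of each library as a covariate, an alternative chosen after the axis had been seen, stand beside the counts of all genes, and the counts of lists that they change follow the account of the lists.

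**Figure D1:**
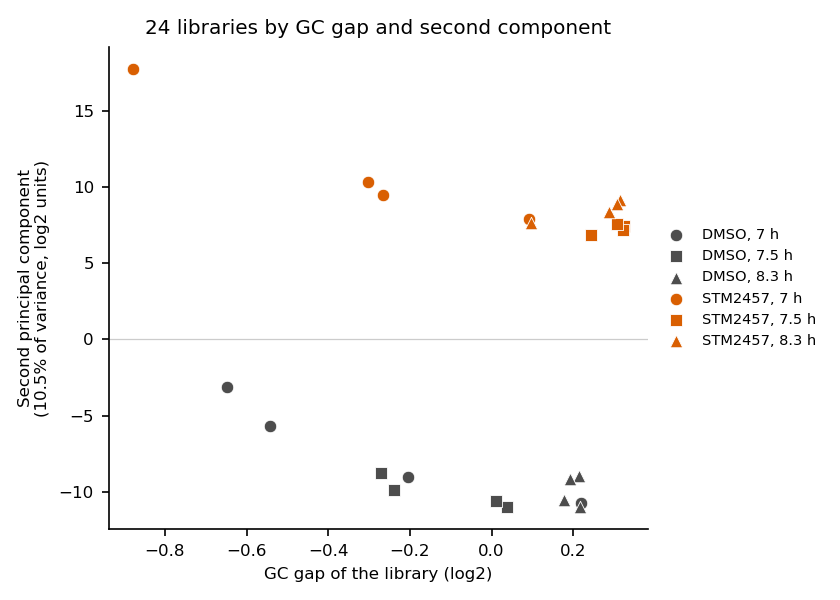
Each point is 1 of the 24 libraries, placed by its GC gap (log2, horizontal axis) and its value on the second principal component (vertical axis, log2 units), with colour for treatment and shape for treatment time. All 12 STM2457 libraries lie above 0 and all 12 DMSO libraries below 0 on the second component, while on the GC gap the treatments mix at 7 and 8.3 h and separate at 7.5 h.

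With the 3 times pooled and time as a covariate, transcripts of the m6A pathway itself, of naive pluripotency, of sterol synthesis and of death receptor signalling were among those higher in STM2457, and transcripts of several p53 targets, of de novo DNA methyltransferases and of microRNA silencing were among those lower. At an adjusted p under 0.01 (edgeR quasi-likelihood test, Benjamini-Hochberg adjustment over 11652 genes), 932 genes changed, 8.0% of those tested. Of these, 568 rose (4.87%) and 364 fell (3.12%). Most changes were moderate. The called increases had a median of 0.59 and the called decreases a median of −0.44 on the log2 scale, 292 and 105 genes passed 1.5-fold, and 55 and 28 passed 2-fold. The sign was the same at 7, 7.5 and 8.3 h for 567 of the 568 increases and for all 364 decreases. These are the libraries that chose the genes, so this agreement was largely fixed in advance. In 71 genes (0.609% of those tested) the 12 libraries of one treatment did not overlap with those of the other, 52 with STM2457 above and 19 with STM2457 below. With the GC gap as covariate 1545 genes were called (13.3%), 810 higher (6.95%) and 735 lower (6.31%), and they included 554 of the 568 increases and 356 of the 364 decreases. Without DMSO replicate 1 of 7 h, 1451 genes were called. The balance of directions depended on scaling. Relative to 84 genes without a GGACA or GGACC or GGACT motif in their transcript, the median of all genes moved to 0.08 on the log2 scale, and 718 genes rose and 131 fell. The study scaled its own RNA-seq in a related way, on expressed genes without m6A sites rather than without the motif.

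The targeted enzyme is inhibited as a protein, and its transcript gave no check of the treatment. Mettl3 (chromosome 14, 52294841 to 52305128) was counted at 18.2, 25.8 and 36.5 CPM in DMSO and at 14.9, 25.3 and 38.8 CPM in STM2457, ranges that overlap throughout. Its difference was −0.08 ± 0.12 on the log2 scale (SE, adjusted p = 0.73, edgeR).

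Genes of at least 20 CPM with at most 50% multimapping reads and the same sign at each treatment time were ranked. The 12 largest increases among them were in Lipt1, Cbr3, Brf2, Trp53rkb, Bmp4, Nxt1, Mfsd5, Ngfr, Ccdc102a, Fam210a, Chrna9 and Rpp25. Lipt1 (chromosome 1, 37871738 to 37876228), whose product attaches lipoate to mitochondrial enzymes, was found at 6.12, 19.1 and 32.9 CPM in DMSO and 11.5, 49.3 and 73.5 CPM in STM2457. The ranges overlapped, the lowest levels of both treatments being those of 7 h, and the difference was 1.28 ± 0.20 (log2, SE, adjusted p = 3.7e-05) without and 1.04 with that covariate. Cbr3 (chromosome 16, 93683215 to 93690990), a carbonyl reductase, stood at 41.2, 54.2 and 67.8 CPM in DMSO and 81, 129 and 159 CPM in STM2457. Every treated library was above every control library, and Cbr3 rose by 1.25 ± 0.10 (log2, SE, adjusted p = 4.1e-10). Brf2 (chromosome 8, 27123364 to 27128680) encodes a subunit of the RNA polymerase III initiation factor TFIIIB. It was counted at 35.6, 46.1 and 62 CPM in DMSO and 74.8, 113 and 133 CPM in STM2457 without overlap, a rise of 1.23 ± 0.10 (adjusted p = 4.1e-10). Trp53rkb (chromosome 2, 166792531 to 166799505), a copy of the p53-regulating kinase gene of the KEOPS complex, was at 9.29, 18.5 and 27.7 CPM and 28.6, 43.8 and 54.5 CPM, again without overlap, and rose by 1.22 ± 0.13 (adjusted p = 2e-07).

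Bmp4 (chromosome 14, 46383520 to 46390669), a BMP ligand that supports self-renewal of mESC, was more variable. It was found at 11.7, 25.4 and 43.5 CPM in DMSO and 31, 51.3 and 100.1 CPM in STM2457, with overlapping ranges, and rose by 1.16 ± 0.20 (log2, SE, adjusted p = 0.00014). Nxt1 (chromosome 2, 148672601 to 148676027), the cofactor of the mRNA export receptor Nxf1, had the smallest error of the 12. Its levels of 29.9, 38.7 and 57 CPM in DMSO and 73.9, 87.6 and 107 CPM in STM2457 did not overlap, and it rose by 1.15 ± 0.08 (adjusted p = 2.6e-10). Mfsd5 (chromosome 15, 102279454 to 102281754), a molybdate transporter, was the most abundant of the 12, at 71.1, 132 and 172 CPM in DMSO and 110.4, 301 and 376 CPM in STM2457. The ranges overlapped and the rise was 1.13 ± 0.12 (adjusted p = 9e-08). Ngfr (chromosome 11, 95568818 to 95587735), the low-affinity neurotrophin receptor, rose from a median of 88.7 to 190.2 CPM by 1.11 ± 0.13 on the log2 scale, and Rpp25 (chromosome 9, 57504026 to 57505448), a protein subunit of RNase P and RNase MRP, from 41.9 to 84.2 CPM by 1.04 ± 0.12. Rpp25 did not overlap between treatments, and Ngfr did. Ccdc102a, Fam210a and Chrna9, the last one a nicotinic acetylcholine receptor subunit, rose by 1.06 ± 0.13, 1.05 ± 0.14 and 1.04 ± 0.14 on the log2 scale, with no overlap for Fam210a.

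The 12 largest decreases were in Usp48, Sar1a, Hnrnpll, 2210016L21Rik, Arfgap1, Zdhhc3, Mplkip, Ank3, Timmdc1, Polr2m, H2afx and Inip. Usp48 (chromosome 4, 137593755 to 137658537), a deubiquitinase, fell the most. It was counted at 33, 37.9 and 48.1 CPM in DMSO and 8.98, 14.5 and 21.5 CPM in STM2457, with all treated libraries below all controls, and the difference was −1.41 ± 0.12 on the log2 scale (SE, adjusted p = 8.6e-10). Sar1a (chromosome 10, 61680299 to 61693297), a GTPase that starts COPII vesicle coats, was at 61, 93.6 and 135 CPM and 23.4, 39.1 and 67.1 CPM, with a difference of −1.20 ± 0.12 (adjusted p = 2.7e-08). The ranges overlapped only between libraries of different times, and at each time all 4 treated libraries were below all 4 controls. Hnrnpll (chromosome 17, 80029487 to 80062334), a splicing regulator, was at 50.9, 78.8 and 104 CPM in DMSO and 27, 36.6 and 58.4 CPM in STM2457 with a difference of −1.12 ± 0.10 (adjusted p = 2.1e-09).

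Arfgap1 (chromosome 2, 180967225 to 180982526), which activates the GTPase of ARF proteins at the Golgi, differed by −1.10 ± 0.15, and Zdhhc3 (chromosome 9, 123066160 to 123113205), a Golgi palmitoyltransferase, by −0.96 ± 0.12 on the log2 scale. The levels of both overlapped between treatments. Timmdc1 (chromosome 16, 38498347 to 38522663), an assembly factor of respiratory complex I, was at 27.8, 36.7 and 47.1 CPM in DMSO and 14.3, 20.2 and 25.7 CPM in STM2457 without overlap, a difference of −0.89 ± 0.11 (adjusted p = 9.2e-07). H2afx (chromosome 9, 44334694 to 44336077), the histone variant that is phosphorylated at DNA breaks, also did not overlap. Its levels were 48, 59 and 67.7 CPM and 21.8, 34.8 and 45 CPM and it differed by −0.83 ± 0.10 (adjusted p = 4.8e-07). Polr2m (chromosome 9, 71478437 to 71485935), which binds RNA polymerase II, was the most abundant of the 12, at 148, 215 and 354 CPM in DMSO and 86.2, 109.6 and 229 CPM in STM2457, and it differed by −0.87 ± 0.12 (adjusted p = 9.5e-06). The remaining 4, which were the uncharacterised 2210016L21Rik (no overlap), Mplkip, the membrane scaffold Ank3 and Inip of the SOSS single-strand binding complex, differed by −1.11 to −0.80 on the log2 scale.

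**Figure D2:**
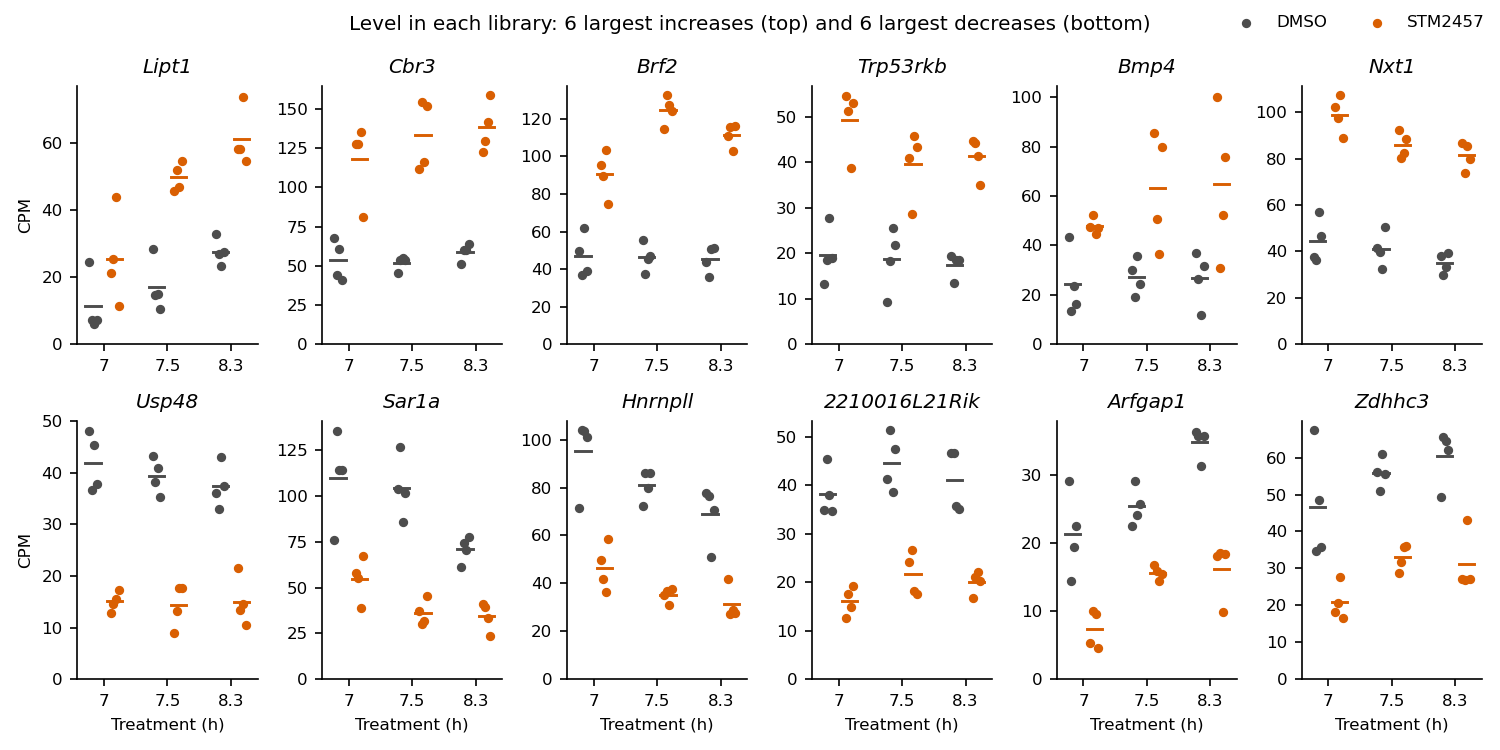
Level in CPM (vertical axes, from 0) of the 6 genes with the largest increase (top) and the largest decrease (bottom) at 7, 7.5 and 8.3 h of treatment (horizontal axes). Points are libraries (4 per group), bars are group means, grey is DMSO and orange is STM2457. Cbr3, Brf2, Trp53rkb and Nxt1 in the top row and Usp48 and 2210016L21Rik in the bottom row separate all 12 treated from all 12 control libraries.

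Leaving out any one library kept all 24 of these genes past the threshold. In the other fits of the pooled comparison, 7 of their calls were lost, 3 without the 7.5 h libraries, 2 without those of 8.3 h and 2 with the 8.3 h libraries alone.

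The sequence that Mettl3 recognises can be seen in these transcripts. The letters GGACA or GGACC or GGACT were searched on the sense strand of the longest coding transcript of each gene (GENCODE M21, GRCm38), where 99.4% of 11391 protein-coding genes tested hold at least 1 of them, with a median of 11 per transcript. The following 25-base windows hold the motif (capitals) nearest to the stop codon in transcripts that rose or fell strongly, and in the reader Ythdc1. They are shown because sites around the stop codon are those most often methylated. Windows of Lipt1, Cbr3, Bmp4 and Hnrnpll were left out. Counted in bases from the end of the stop codon, their motifs begin at −279, −109, 21 and −305. The motifs shown begin between −39 (Ythdc1) and 122 (Brf2). Whether these adenosines carry m6A in these cells was not measured here, and the motif is present in the falling transcripts as well as in the rising ones.
Brf2: gcagttaattGGACCaaggtcctag
Trp53rkb: agacgaggctGGACCcctcagcaaa
Nxt1: tccggttccaGGACTgggccagcta
Ythdc1: tatgtgatcgGGACAgagaccgagg
Usp48: gggcctgctcGGACAttaatctttg
Sar1a: actgatgtttGGACAgtgaaaataa
On GRCm38 the windows lie at chr8:27123758-27123782 (− strand, 3′ UTR) for Brf2, chr2:166795900-166795924 (+ strand, 3′ UTR) for Trp53rkb, chr2:148675738-148675762 (+ strand, coding sequence) for Nxt1, chr5:86835859-86835883 (+ strand, coding sequence) for Ythdc1, chr4:137656126-137656150 (+ strand, coding sequence) for Usp48 and chr10:61691397-61691421 (+ strand, 3′ UTR) for Sar1a.

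The contrast of 4 against 4 libraries at each time found fewer genes. It was taken from a fit of all 24 libraries, which share one estimate of spread. At 7 h, 72 genes were called (0.618% of 11652), 55 higher (0.472%) and 17 lower (0.146%), at 7.5 h 404 (3.47%), 216 higher (1.85%) and 188 lower (1.61%) and at 8.3 h 77 (0.661%), 63 higher (0.541%) and 14 lower (0.120%). A fit of the 8.3 h libraries alone, with its own spread, called 453 of 10851 genes, 325 higher and 128 lower. The 7.5 h libraries are those whose GC gaps did not overlap between treatments. At that time the quartile of genes with the highest GC content had a median log2 difference of 0.25 and the quartile with the lowest −0.24, against −0.02 and 0.01 at 7 h and 0.04 and −0.02 at 8.3 h. Once the GC gap was a covariate, 339 (2.91%), 369 (3.17%) and 380 genes (3.26%) were called at the 3 times. The counts at single times depended on single libraries, with 806 genes at 7.5 h without DMSO replicate 1 of 7 h and 116 without DMSO replicate 4 of 7.5 h. The effects at 8.3 and 7 h did not differ past the threshold for any gene (edgeR test of the difference, 0 of 11652, with 221 at an unadjusted p under 0.05, and 0 in each alternative fit, with 390 unadjusted when the GC gap was a covariate). The 24 genes with the largest changes had to share their sign at all 3 times to be named. Their agreement in sign was therefore fixed in advance. Brf2 had log2 differences of 0.96, 1.43 and 1.29 at 7, 7.5 and 8.3 h, Cbr3 of 1.14, 1.37 and 1.23, Nxt1 of 1.16, 1.06 and 1.21, Usp48 of −1.47, −1.45 and −1.32 and Hnrnpll of −1.03, −1.21 and −1.13. Genes such as Ank3 (−0.43, −1.28 and −0.98), Ccdc102a (0.82, 1.59 and 0.79) and Arfgap1 (−1.53, −0.70 and −1.10) varied more between the times.

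The neighbouring treatment times, which were measured in other libraries, gave the same direction for nearly all of these genes. At 6 h (8 libraries), 557 of 563 tested genes of the 568 increases were above 0, 98.9% against 49.6% of all genes tested, and 356 of 360 of the 364 decreases were below 0, 98.9% against 50.4%. The test on those 8 libraries alone called 154 genes (1.42% of 10852), 115 higher (1.06%) and 39 lower (0.359%). Of the 115 increases, 111 (96.5%) were also called at 7 to 8.3 h, where they made up 19.5% of the list, and of the 39 decreases 32 (82.1%) were, which made up 8.79%. In the libraries of 3.5 and 5.3 h of chase (15 libraries, the next 2 treatment times), 99.5% of the increases and 97.5% of the decreases kept their sign. There, 735 genes were called (6.37% of 11537), 436 higher (3.78%) and 299 lower (2.59%), and 295 increases (51.9% of the list at 7 to 8.3 h) and 128 decreases (35.2%) were shared. By 14 and 18 h (16 libraries) 90.5% of the increases but 76.2% of the decreases had the same sign, with 308 and 101 called in the same and 2 and 9 in the opposite direction. In all, 1729 genes were called there (15.0% of 11545), 977 higher (8.46%) and 752 lower (6.51%).

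The increases called at 7 to 8.3 h had a median of 0.59 there, 0.54 at 6 h, 0.52 at the next 2 times and 0.43 at 14 and 18 h, and the decreases −0.44, −0.37, −0.37 and −0.19. With the GC gap of each library as covariate, the medians at 6 h, at the next 2 times and at 14 and 18 h were 0.50, 0.49 and 0.45 for the increases and −0.28, −0.29 and −0.24 for the decreases. The value at 7 to 8.3 h comes from the libraries that chose the genes, the others do not. No gene differed past the threshold between 7 to 8.3 h and 6 h (0 of 12330, 312 at an unadjusted p under 0.05) or between the next 2 times and 7 to 8.3 h (0 of 12330, 571 unadjusted) in the edgeR fit of 47 libraries, nor in its alternatives but one. In the fit with the GC gap as covariate, 1 gene (0.00811%) passed in the second of these tests, Tardbp, which encodes the RNA-binding protein TDP-43, with a change of 0.41 ± 0.08 from the earlier to the later effect (log2, SE, adjusted p = 0.0085). It was picked after its values were seen, and 70.8% of its reads were multimapping. Brf2 had a difference of 1.29 at 6 h, 1.19 at the next 2 times and 1.01 at 14 and 18 h, and Usp48 of −1.95, −1.37 and −0.63.

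**Figure D3:**
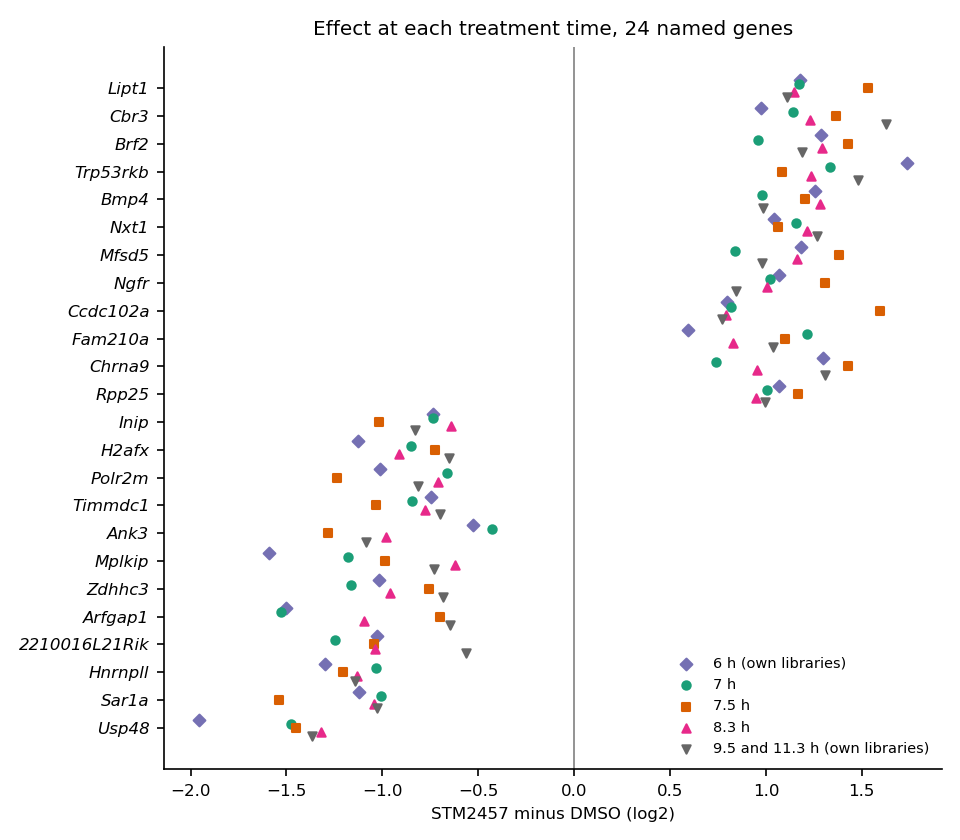
Difference of STM2457 and DMSO (log2, horizontal axis) for the 12 largest increases and 12 largest decreases at 7, 7.5 and 8.3 h, beside the differences at 6 h and at the next 2 times from other libraries, with 1 symbol per time. All 5 symbols lie on the same side of 0 for each of the 24 genes, and none of these genes passed the test of a difference between times. The genes were picked with the same sign at 7, 7.5 and 8.3 h. Only the symbols of 6 h and of the next 2 times were therefore free to differ in side.

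Of the 7 measured genes of the m6A writer complex, 3 rose and 0 fell (42.9% called). Over all genes 8.0% were called, 4.87% higher and 3.12% lower, and the counts of all lists stand against these shares. Wtap (chromosome 17, 12966796 to 12994169), which brings Mettl3 and Mettl14 to nuclear speckles, was at 153, 168 and 181 CPM in DMSO and 238, 268 and 350.0 CPM in STM2457. The treatments did not overlap and Wtap rose by 0.77 ± 0.06 (log2, SE, adjusted p = 3.8e-10). However, 64.3% of its reads mapped to more than one place, and with uniquely mapping reads alone the difference was 1.38. Rbm15 (chromosome 3, 107325421 to 107333673), an RNA-binding subunit, was at 40.3, 61.6 and 74.5 CPM and 74.1, 93.3 and 123 CPM, overlapping slightly, and rose by 0.67 ± 0.10 (adjusted p = 3.4e-05). Zc3h13 was the third, with 0.53 ± 0.14 (adjusted p = 0.0086), a call that was kept in 5 of 24 fits without one library. Mettl14, the partner that binds RNA, differed by −0.01 ± 0.12 (adjusted p = 0.99), Virma by −0.17 ± 0.12 (adjusted p = 0.4) and the ubiquitin ligase Cbll1 by 0.29 ± 0.14 (adjusted p = 0.18). The demethylases did not pass, at −0.01 ± 0.08 for Fto and 0.22 ± 0.07 for Alkbh5. In the fit with the GC gap as covariate, Cbll1 (0.47, adjusted p = 0.00036) and Alkbh5 (0.22, adjusted p = 0.0092) passed, which makes 4 of 7 writer genes and 1 of 2 demethylases.

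Of the 5 YTH readers, which bind m6A directly, 3 rose and 0 fell (60% called, against 8.0% of all genes). The nuclear reader Ythdc1 (chromosome 5, 86804221 to 86836659) was at 46.8, 62.3 and 77.8 CPM in DMSO and 87.6, 114 and 158 CPM in STM2457. All treated libraries were above all controls, and it rose by 0.94 ± 0.08 (log2, SE, adjusted p = 2.1e-09), with 48.5% multimapping reads and 1.07 on unique reads. Of the cytoplasmic readers, Ythdf1 was at 106, 124 and 176 CPM and 148, 222 and 255 CPM and rose by 0.62 ± 0.09 (adjusted p = 8.9e-06). Ythdf2, which recruits the deadenylase complex to methylated transcripts, was at 25.1, 49.4 and 77.7 CPM and 52.2, 69.8 and 119 CPM and rose by 0.60 ± 0.13 (adjusted p = 0.0013). Both overlapped between treatments. Ythdf3 had 0.36 ± 0.13 (adjusted p = 0.055) and Ythdc2 −0.49 ± 0.18 (adjusted p = 0.058). At 6 h the differences of Ythdc1, Ythdf1 and Ythdf2 were 0.96, 0.59 and 0.63. Among 6 other m6A-binding proteins 1 rose (16.7%), Igf2bp2 by 0.40 ± 0.09 (adjusted p = 0.003), and of 6 genes of S-adenosylmethionine supply none was called.

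Of 13 naive pluripotency factors measured, 4 rose, 0 fell and 11 had a difference above 0, with a median of 0.39 on the log2 scale against −0.005 over all genes. The share called was 30.8%, against 8.0% of all genes. Nr0b1 (chromosome X, 86191764 to 86195947), a nuclear receptor that restrains Oct4 activity, was at 36, 63.9 and 96.4 CPM in DMSO and 69.8, 117 and 138 CPM in STM2457, and rose by 0.76 ± 0.12 (log2, SE, adjusted p = 6.3e-05). Esrrb (chromosome 12, 86361117 to 86521628), an orphan nuclear receptor of the naive network, was at 52.3, 69.9 and 97.5 CPM and 80.5, 109 and 141 CPM and rose by 0.61 ± 0.10 (adjusted p = 9.6e-05). Klf2 was at 274, 562 and 726 CPM and 361, 826 and 940.3 CPM and rose by 0.48 ± 0.10 (adjusted p = 0.00078). Fgf4, the FGF ligand made by these cells, rose by 0.55 ± 0.12 (adjusted p = 0.0015). The ranges of all 4 overlapped. Nanog had 0.29 ± 0.09 (adjusted p = 0.025), Zfp42 0.53 ± 0.14 (adjusted p = 0.011), Tbx3 0.39 ± 0.13 (adjusted p = 0.037) and Klf5 0.39 ± 0.18 (adjusted p = 0.15). In the fit with the GC gap as covariate, Nanog, Zfp42 and Tbx3 passed the threshold as well, and 7 of the 13 were called. Pou5f1 had −0.03 ± 0.06 and Tfcp2l1 0.07 ± 0.11, neither past it, Dppa3 had −0.27 ± 0.11 (adjusted p = 0.086), and Klf4 and Prdm14 were at medians of at most 3.24 CPM. Of these values 3 rest on ambiguous reads, as 95.9% of the Pou5f1, 74.6% of the Zfp42 and 53.5% of the Klf4 reads were multimapping.

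Of 7 tested formative and primed markers, 0 rose and 2 fell (28.6% called, against 8.0% of all genes), both of them de novo DNA methyltransferases. Dnmt3b was at 207, 266 and 347 CPM in DMSO and 161, 188 and 274 CPM in STM2457, with overlap, and differed by −0.47 ± 0.08 (adjusted p = 0.00013), and Dnmt3a differed by −0.26 ± 0.07 (adjusted p = 0.0094), a call kept in 4 of 24 fits without one library. The other five were not called and included Otx2 at −0.05 and Sox3 at 0.55 on the log2 scale, the latter called with the GC gap as covariate (0.40, adjusted p = 0.0022). Both methyltransferases are also the only called members of the list of 8 DNA methylation and TET genes, where 7 of 8 differences were below 0.

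Targets of signalling moved in both directions. Of 9 BMP and Nodal targets 1 rose and 2 fell. The shares called were 33.3% here and 22.2% each among the WNT and immediate early genes below, against 8.0% of all genes. The pseudoreceptor Bambi rose by 0.92 ± 0.13 (adjusted p = 1.4e-05). Lefty1, the secreted Nodal antagonist, was at 481, 621 and 763 CPM in DMSO and 399, 425 and 487 CPM in STM2457, ranges that barely overlap, and differed by −0.53 ± 0.06 (adjusted p = 7.6e-07), and Id3, a direct BMP target, by −0.48 ± 0.09 (adjusted p = 0.00072). Of 9 WNT targets and pathway genes, Lef1 (−0.70 ± 0.14, adjusted p = 0.00066) and Ctnnb1 (−0.30 ± 0.06, adjusted p = 0.00093), the β-catenin gene, fell and 0 rose. None of 9 FGF-ERK feedback genes, 7 LIF-STAT3 genes and 11 genes of the MYC network passed the threshold, although all 7 LIF-STAT3 genes had differences above 0. With the GC gap as covariate, 1 FGF-ERK gene, the ETS factor Etv4, was lower (−0.50, adjusted p = 0.00021) and 1 of the MYC network, the dimerization partner Max, higher (0.22, adjusted p = 0.0069). Of 9 immediate early genes Jund rose (0.60 ± 0.15, adjusted p = 0.0064, 0.18, 1.18 and 0.45 at the 3 times) and Ier2 fell (−0.39 ± 0.09, adjusted p = 0.0027). The Jund call was kept in 8 of 24 fits without one library, and 27.1% of its reads were multimapping.

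All 11 tested genes of NF-κB and death receptor signalling had a difference above 0 (median 0.34), and 3 of them rose (27.3% called, against 8.0% of all genes). Ripk1, the kinase at the death receptor complex, was at 5.62, 9.07 and 14.2 CPM in DMSO and 10.2, 16.9 and 27.8 CPM in STM2457, and rose by 0.96 ± 0.16 (log2, SE, adjusted p = 0.0001). Fadd, its adaptor, was at 4.95, 11.1 and 17 CPM and 12.4, 19.6 and 24.6 CPM and rose by 0.90 ± 0.14 (adjusted p = 2.3e-05). Rela, an NF-κB subunit, rose by 0.57 ± 0.12 (adjusted p = 0.0017). The ranges of the 3 overlapped, and Ripk1 and Fadd had under 30 CPM in every library.

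Of 14 p53 pathway genes, 0 rose and 5 fell (35.7% called, against 8.0% of all genes), with a median of −0.30 and 2 differences above 0. Plk2 (chromosome 13, 110395046 to 110400844), a polo-like kinase induced by p53, was at 35.4, 43.9 and 52.7 CPM in DMSO and 20.1, 27.6 and 32.7 CPM in STM2457 without overlap, a difference of −0.70 ± 0.09 (log2, SE, adjusted p = 1.3e-06). Pmaip1 (Noxa) and Bbc3 (Puma), which promote apoptosis, differed by −0.73 ± 0.17 (adjusted p = 0.0037) and −0.65 ± 0.11 (adjusted p = 0.00018). Ccng1, one of the most strongly induced p53 targets in mouse cells, was at 178, 236 and 414 CPM and 135, 152 and 303 CPM and differed by −0.64 ± 0.12 (adjusted p = 0.00026). Its difference was larger at 7.5 h (−0.47, −1.0 and −0.46 at the 3 times), and −0.47 with the GC gap as covariate. The fifth was Mdm2 (−0.33 ± 0.06, adjusted p = 0.00051), which encodes the ubiquitin ligase of p53. Given the GC gap covariate, 8 of the 14 fell. Of 11 cyclins and CDK inhibitors 0 rose and 2 fell, Ccna2 by −0.40 ± 0.08 (adjusted p = 0.00079) and Ccnd2 by −0.27 ± 0.07 (adjusted p = 0.0055), the latter kept in 13 of 24 fits without one library, and 6 fell with the covariate. Without the covariate, 18.2% of the cyclins and CDK inhibitors were called, against 8.0% of all genes. Relative to the genes without the motif, 3 of the p53 genes and 0 of the cyclins and CDK inhibitors fell.

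Of 18 tested genes of cholesterol synthesis, 6 rose and 0 fell (33.3% called, against 8.0% of all genes), and 16 had a difference above 0 (median 0.27). Msmo1 (chromosome 8, 64718139 to 64733792), the sterol methyl oxidase, was at 211, 236 and 260.0 CPM in DMSO and 328, 354 and 384 CPM in STM2457. These did not overlap, and it rose by 0.60 ± 0.05 (log2, SE, adjusted p = 2.9e-09), with 0.56 at 6 h and 0.77 at the next 2 times. Dhcr7, Sc5d and Fdft1, 3 further enzymes of the pathway, rose by 0.49 ± 0.13, 0.39 ± 0.10 and 0.39 ± 0.07, and the sterol demethylase gene Cyp51 by 0.35 on the log2 scale. The Dhcr7 call was kept in 5 of 24 fits without one library, and 62.9% of the Fdft1 reads were multimapping.

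Of 13 genes of microRNA processing and silencing, 0 rose and 3 fell (23.1% called, against 8.0% of all genes), and 11 had a difference below 0 (median −0.25). Tnrc6c, a GW182 protein that links Argonaute to deadenylation, was the extreme at 4.40, 10.7 and 16.2 CPM in DMSO and 0.682, 2.35 and 4.05 CPM in STM2457. The treatments did not overlap, and the difference was −2.09 ± 0.27 (log2, SE, adjusted p = 2.8e-06), but at such levels a library holds few reads of it. Its paralog Tnrc6a differed by −0.51 ± 0.12 (adjusted p = 0.0032) and Dgcr8, the partner of Drosha, by −0.42 ± 0.09 (adjusted p = 0.0011). Of 10 genes of nonsense-mediated decay 1 rose, Smg8, a regulator of the kinase Smg1, which was at 10.3, 15.8 and 24.8 CPM in DMSO and 24.9, 30.9 and 38 CPM in STM2457 without overlap and rose by 0.90 ± 0.12 (adjusted p = 5.2e-06). Of 16 deadenylation genes the antiproliferative factor Btg1 rose (0.38 ± 0.09) and the complex subunits Cnot10 (−0.45 ± 0.08) and Cnot7 (−0.25 ± 0.07) fell, and of 10 decapping genes the scaffold Edc3 rose (0.52 ± 0.09). The shares called in nonsense-mediated decay and decapping, 10% each, were near the 8.0% over all genes. 78.8% of the Btg1 reads were multimapping, and the Cnot7 call was kept in 4 of 24 fits without one library. None of 17 SR splicing factors and CLK kinases passed.

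Of 21 Polycomb genes 2 rose and 2 fell, where 8.0% of all genes were called, and relative to the genes without the motif 3 rose and 0 fell. Cbx2, a chromodomain subunit of PRC1, was at 21.5, 31.5 and 40.9 CPM in DMSO and 43.9, 56.1 and 68.6 CPM in STM2457 without overlap, and rose by 0.80 ± 0.10 (adjusted p = 1.2e-06), and Jarid2 rose by 0.26 ± 0.07 (adjusted p = 0.0091), a call kept in 4 of 24 fits without one library. The PRC2 core subunits Ezh2 and Eed differed by −0.42 ± 0.10 (adjusted p = 0.0057) and −0.37 ± 0.08 (adjusted p = 0.0013), and the Ezh2 call was kept in 14 of 24 fits without one library. Among stress genes, Trib3 was the only one of 13 ATF4-response genes to rise, at 4.87, 9.14 and 13.4 CPM and 12.4, 19.2 and 26 CPM, by 1.01 ± 0.14 (adjusted p = 1.2e-05), while Psat1 (−0.31 ± 0.07) and Asns (−0.27 ± 0.07), both biosynthetic, fell. Xbp1 was the 1 of 9 endoplasmic reticulum stress genes called (0.46 ± 0.11), Dnajb1 the 1 of 10 heat shock genes (0.38 ± 0.07) and Ddx58 the 1 of 6 interferon-response genes (0.49 ± 0.13), all higher in STM2457. Of the endoplasmic reticulum stress genes 11.1% and of the heat shock genes 10% were called, near the 8.0% over all genes. The Ddx58 call was kept in 8 and the Asns call in 12 of 24 fits without one library.

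In large housekeeping lists the share of called genes was between 0% and 10.5%, against 8.0% of all genes. None of 80 cytosolic ribosomal proteins and none of 16 glycolysis genes was called, and 1 of 76 respiratory chain genes was, Ndufs4 (−0.30 ± 0.08), kept in 8 of 24 fits without one library and not called with library totals or relative to the genes without the motif. Of 76 mitochondrial ribosomal proteins 3 rose and 5 fell, led by Mrps2 (0.75 ± 0.07, no overlap) and Mrpl47 (−0.55 ± 0.07). Of 298 zinc finger Zfp genes 17 rose and 6 fell with a median of 0.001, among them Zfp141 (0.88 ± 0.10, no overlap) and the lowly expressed Zfp846 (−1.16 ± 0.24). In the fit with the GC gap as covariate, where 810 of all genes rose and 735 fell, 3 BMP and Nodal targets fell, 5 microRNA genes, 4 cytosolic ribosomal proteins, 3 respiratory chain genes and 1 endoplasmic reticulum stress gene. By the same fit 4 NF-κB genes, 7 cholesterol genes and 1 formative gene rose, 2 Polycomb genes rose and 3 fell, 5 mitochondrial ribosomal proteins rose and 12 fell, and 24 Zfp genes rose and 9 fell. Relative to the genes without the motif, where 718 of all genes rose and 131 fell, 0 ATF4-response and 0 immediate early genes fell. There, 1 formative, 1 WNT, 1 DNA methylation, 1 deadenylation, 1 BMP or Nodal, 2 microRNA, 2 mitochondrial ribosomal and 5 Zfp genes fell. Among those that rose were 6 naive pluripotency, 8 cholesterol, 4 NF-κB, 2 deadenylation, 4 mitochondrial ribosomal, 26 Zfp, 1 MYC and 1 S-adenosylmethionine gene. The lists were described by counts alone, without a test of a list. The signs of the medians given for the writer, reader, naive, NF-κB, p53, cholesterol and microRNA lists were the same under all 4 scalings.

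**Figure D4:**
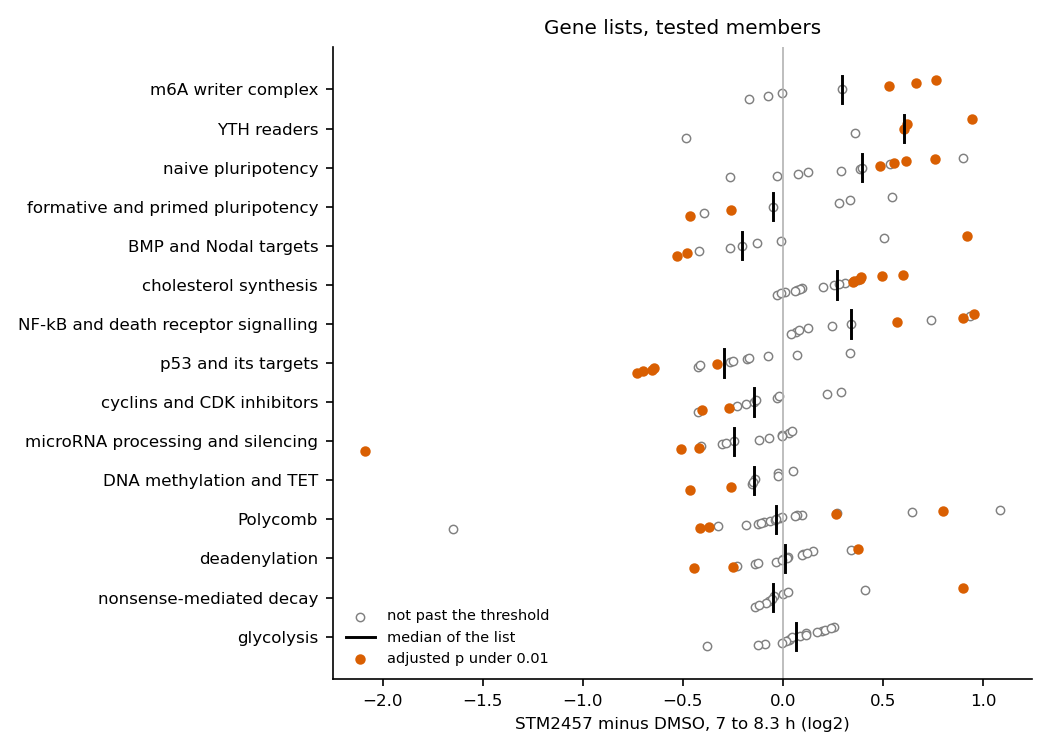
Each point is the difference of STM2457 and DMSO at 7 to 8.3 h (log2, horizontal axis) of 1 tested member of the list named at the left, filled where the adjusted p was under 0.01 and open where not, and the bar is the median of the list. The medians of the YTH readers (0.60), naive pluripotency (0.39) and NF-κB and death receptor signalling (0.34) lie furthest to the right and that of the p53 list (−0.30) furthest to the left.

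Features of the transcripts that the test did not use differed between the rising and the falling genes. All values are medians over protein-coding genes, which are not independent replicates, and are given as descriptions. The rising genes had 1.47 exon junctions per kb of transcript (n = 555), the falling ones 3.06 (n = 356) and all tested 2.92 (n = 11391), and their longest exon measured 1779, 1273 and 1478 bases. In the quartile of genes with the fewest junctions per kb, 9.94% rose and 2.53% fell, and in the quartile with the most, 1.02% rose and 3.48% fell. Transcript length differed less, at 3016 bases for rising, 2698 for falling and 3099 for all genes. The density of these motifs was 4.07 per kb in rising, 3.40 in falling and 3.65 in all genes, and the share of genes that rose went from 3.27% in the quartile with the lowest density to 6.57% in the quartile with the highest. For genes called with the GC gap as covariate, the density was 3.88 in rising and 3.65 in falling genes. Between these quartiles the median log2 difference went from −0.15 to 0.13 at 7.5 h. It went from −0.01 to −0.02 at 7 h and from −0.03 to 0.02 at 8.3 h.

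GC content moved with these features. It was 53.3% in the transcripts of rising genes, 48.5% in those of falling genes and 50.6% in all, and it rose from 44.8% to 55.6% over the quartiles of motif density, but only from 49% to 52.5% over the quartiles of junction density, where the share of rising genes ran the other way. The rising and falling genes called with the GC gap as covariate had a GC content of 51.8% and 50.3%. When the GC gap was a covariate, 5.34% and 8.04% of the genes rose in the lowest and highest quartile of motif density, and 14% and 1.4% in the lowest and highest quartile of junction density. Within the quartile of genes with the highest GC content, 5.34% of the genes with the fewest motifs per kb and 8.01% of those with the most rose, and within the quartile with the lowest GC content 2.53% and 3.09%.

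How long the same transcripts kept their label without the inhibitor was read from other libraries. Label left was taken as the background-subtracted conversion rate after 5.3 h of chase as a share of that at 0 h in DMSO. This reading was added after the calls had been seen. It was 4.35% for the rising genes (n = 396), 25.1% for the falling genes (n = 306) and 17.2% for all genes with enough coverage (n = 6047). In the quartile of genes with the least label left, 17.8% rose and 2.84% fell, and in the quartile with the most, 0.397% rose and 6.15% fell. The order was the same with the GC gap as covariate, at 25.1% and 4.37% in the quartile with the least and 0.728% and 16.4% in the quartile with the most. Median GC content differed little over these quartiles (48.8% to 51.5%), while the median level rose from 42.9 to 124 CPM.

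**Figure D5:**
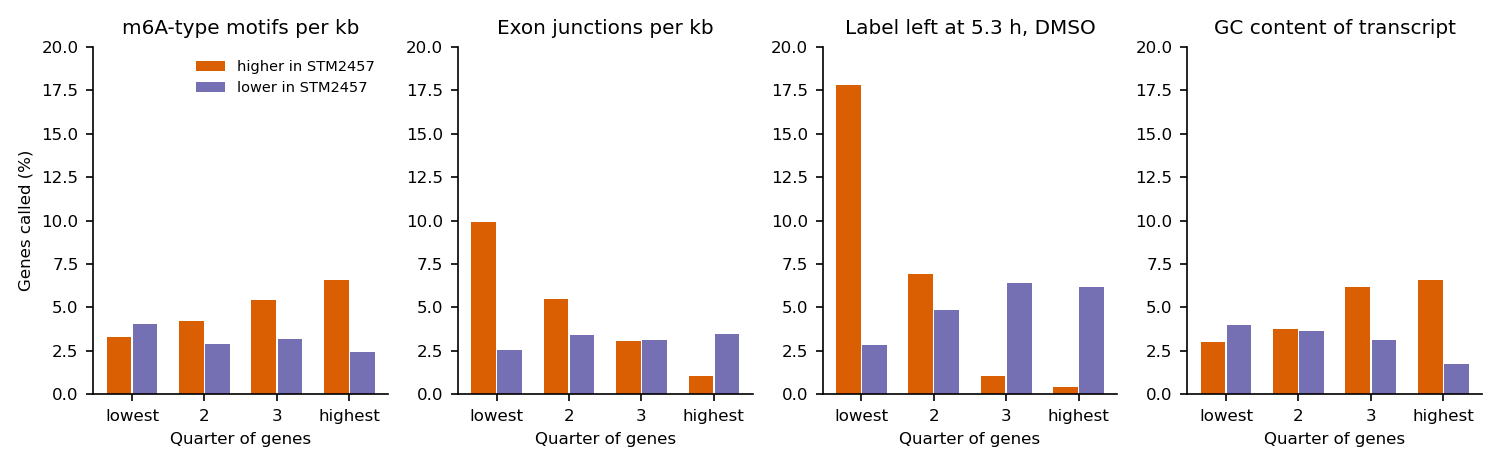
Share of protein-coding genes called higher (orange) or lower (violet) in STM2457 at 7 to 8.3 h (vertical axis, percent), for quartiles of genes from the lowest to the highest motif density, exon junction density, label left after 5.3 h of chase in DMSO, and GC content of the transcript. The steepest course is that of label left, where the share of rising genes runs from 17.8% to 0.397%.

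The T-to-C conversion rate gave a second readout from the same libraries. Summed over genes, 1.24% ± 0.07 of the sequenced T positions (SD, n = 4 libraries) were converted in DMSO and 1.17% ± 0.06 in STM2457 at 7 h, 1.12% ± 0.05 and 1.13% ± 0.06 at 7.5 h, and 1.15% ± 0.06 and 1.10% ± 0.03 at 8.3 h, against 0.0814% ± 0.0044 and 0.0829% ± 0.0081 in the unlabelled libraries. The mean difference of −0.0345 percentage points was within the spread between libraries (two-sided exact permutation test within time points, p = 0.17, n = 12 libraries per treatment). By gene, limma called 0 of 6595 genes, with 500 at an unadjusted p under 0.05, and 0 under each alternative run. The genes called on read number were not spread evenly around the others, though. Of 457 rising genes with a rate, 24.1% had a lower rate in STM2457, against 59.9% of all 6595 genes and 72.6% of the 307 falling genes, and the median log2 ratios were 0.14, −0.04 and −0.07. Reads and conversions come from the same libraries, so these are 2 views of 1 experiment. Brf2 had a rate of 0.696% in DMSO and 1.00% in STM2457, Trp53rkb of 0.927% and 1.43%, Smg8 of 0.792% and 1.22%, and Usp48 of 1.06% and 0.864%, none past the threshold. Other named genes went against their read counts, also without passing it. Among the increases these included Ngfr (0.985% and 0.866%), Fam210a (1.20% and 0.976%) and Chrna9 (1.12% and 1.01%), and among the decreases H2afx (1.01% and 1.08%).

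The study asks whether m6A bears on the balance of X-chromosomal and autosomal expression, and the ratio was therefore compared at the level of read counts. In these male cells, which have a single X chromosome, 7 of 400 tested X-chromosomal genes rose and 11 fell, 4.50% in all against 8.0% of all genes. Nr0b1 was 1 of the 7. The median log2 difference on the X was −0.08, the lowest of the 20 chromosomes, which otherwise lay between −0.06 and 0.03. With the GC gap as covariate it was −0.035, again the lowest but next to −0.034 on chromosome 17. Transcripts of X-chromosomal genes had the lowest median GC content, 46.2%, of the 20 chromosomes. Per library, the median CPM on the X over that on the autosomes came to a log2 value of −0.38 ± 0.07 (SD, n = 12 libraries) in DMSO and −0.45 ± 0.11 in STM2457. The difference of −0.07 did not pass the threshold of 0.05 used for exact permutation tests (two-sided, within time points, p = 0.063). It was −0.03 at 7 h (exact permutation test, p = 0.66), −0.07 at 7.5 h (p = 0.029, exact, the smallest p that 4 against 4 libraries allow) and −0.09 at 8.3 h (p = 0.23, exact). Adjusted over the 3 times, the exact permutation p at 7.5 h was 0.086. The GC gaps of the treatments did not overlap at 7.5 h either, and their part in the ratio was not tested. Over genes of at least 20 CPM the difference was −0.06 (exact permutation test, p = 0.0099) and on uniquely mapping reads −0.09 (exact permutation test, p = 0.027), so that the call depends on the genes and reads used. It was past the threshold also without DMSO replicate 1 of 7 h, STM2457 replicate 4 of 7 h or STM2457 replicate 1 of 8.3 h (exact permutation p of 0.0304, 0.0116 and 0.0163).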

How the data were processed

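SLAM-seq libraries of male mESC were compared over 12 STM2457 and 12 DMSO samples, grouped by the labels. The deposited tables were made by the authors with SLAM-DUNK on GRCm38.p6 (FastQC 0.11.8 and the build per the labels): reads were mapped allowing multiple positions, positions variable in unlabelled libraries were masked, and 3′ UTR windows were summed per gene. The deposited values are raw counts of reads, T-to-C conversions and T positions, the conversion rate as a fraction and CPM by the authors. Conversion rates are given here as percent, and CPM was computed anew with scaling factors. SLAM-DUNK counts whether or not a read is unique, so genes with near-identical copies are uncertain, and the multimapping share is given for these.

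Counts of 24 libraries (4756832 to 6804970 reads) were fitted with edgeR 4.0.16 in R 4.3.3 (TMM, filterByExpr on 6 groups, quasi-likelihood test, adjusted p under 0.01) with time as covariate, or with 6 group means for single times. Effects at other times were fitted with 47 libraries (6 h to 5.3 h of chase) or each time's own libraries. Conversion rates were compared by limma 3.58.1 (mean T coverage of at least 2000) and library values by exact permutation of treatments within time points (343000, threshold 0.05). The edgeR step was tested on simulated data of the pooled comparison with 200 changed genes of at least 20 CPM among 11476. It recovered 98% of those changed by 1 and 54% of those changed by 0.5 on the log2 scale, with 3 false calls. How far these values carry over to the libraries themselves, with their axis linked to GC content, was not tested. Recovery of genes under 20 CPM was not tested either. DESeq2 1.42.0, other scalings, filters, read sets, thresholds and sample sets were alternatives, and the GC gap was added as a covariate after the data had been seen.

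Positions and transcripts came from GENCODE M21 (GRCm38), in which 21383 of 21527 genes were found by symbol and 105 by a RefSeq synonym. Named genes include the 12 largest called increases and decreases of at least 20 CPM with at most 50% multimapping reads. These also had to have the same sign at each treatment time of the pooled comparison. Up to 4 called members of each list were named too, besides the listed m6A and naive pluripotency genes. Mdm2, Cyp51, Sox3, Otx2, Etv4, Max and Tardbp were named after their values had been seen. Members and gene lists were chosen with earlier results of these data known. Same-numbered libraries did not deviate together in read counts, so no pairing was used, and pairing by number was an alternative. Libraries of other times entered no count at 7 to 8.3 h.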

Additional observations from a re-analysis of the deposited data

Results flagged for a closer look

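In 36 comparisons, of 6 quantities in each of 6 groups of 4 libraries, 2 single values stood apart from the others of their group by Dixon's criterion, where chance alone gives about 1.8. The log2 ratio of X-chromosomal to autosomal expression was −0.29 in replicate 4 of DMSO at 7.5 h, against a mean of −0.41 in the other three libraries of that group. The GC gap was 0.10 in replicate 1 of STM2457 at 8.3 h, against a mean of 0.30 in the others. Leaving out either library kept the number of genes called in the pooled comparison within 1.5-fold of 932.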

How the results depend on the processing

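Of 3835 values of the 101 named genes under other settings, 3401 kept their direction and side of the threshold, 376 fell below it, 25 passed it and 33 changed sign. The 33 belong to 6 genes, none of them called in the pooled comparison or in the setting concerned. Scaled on genes without the motif, the log2 values were 0.0087 for Mettl3, 0.069 for Mettl14, 0.064 for Fto and 0.052 for Pou5f1. With the GC gap and the block they were 0.0076 for Mettl3, 0.017 for Virma and 0.014 for Fto. Without the 7 h libraries Pou5f1 was at 0.015, without the 7.5 h ones Mettl3 at 0.041 and Klf4 at −0.075, without the 8.3 h ones Mettl14 at 0.10 and Fto at 0.032, and in the 8.3 h libraries alone Pou5f1 at 0.029. Leaving out one library gave −0.064 to 0.051 for Mettl14, −0.038 to 0.025 for Fto, −0.038 to 0.012 for Pou5f1 and −0.060 to 0.34 for Klf4. The pooled count of 932 became 1805 at an adjusted p under 0.05, 601 without the time covariate, 278 without the 7.5 h and 255 without the 8.3 h libraries, 453 in the 8.3 h libraries alone and 1545 with the GC gap as covariate. It lay between 836 and 1394 with other scalings, without a filter, on unique reads, with DESeq2 and without the 7 h libraries. With the GC gap, 339 genes were called at 7 h and 380 at 8.3 h, and 1 for the difference to the next 2 times. The ratio of X to autosomes passed its threshold, a permutation p under 0.05, with genes of at least 20 CPM (−0.063) and on unique reads (−0.089). The cause of these shifts was not tested.

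Leaving out one library gave 792 to 1451 genes in the pooled comparison, 36 to 97 at 7 h, 116 to 806 at 7.5 h and 37 to 111 at 8.3 h. DMSO replicate 1 of 7 h was the library whose omission gave each highest count (1451, 97, 806 and 111). The count at 7 h fell to 36 to 43 without DMSO replicate 3 or 4 or STM2457 replicate 1 or 2 of that time. At 7.5 h it fell to 116 to 204 without DMSO replicate 2 or 4 or any STM2457 replicate of that time, and at 8.3 h to 37 to 51 without any DMSO replicate or STM2457 replicate 1, 3 or 4. No gene was called for a difference in effect or conversion rate in any of these fits. The X to autosome difference ran from −0.084 to −0.052 (two-sided exact permutation p from 0.0116 to 0.14) and that of the conversion rate from −0.0449 to −0.0232 percentage points.

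In read counts, same-numbered libraries did not deviate together (12 pairs, r from −0.26 to 0.57, 2 over 0.1). In conversion rate, replicate 1 was the lowest of its group in both treatments at 7.5 h (1.04% in DMSO, 1.06% in STM2457). The same held at 8.3 h (1.05% and 1.06%), but at 7 h in DMSO only. The labels do not say whether the numbers pair the samples, so values with the pairing are given as alternatives. With the replicate block 732 genes were called in the pooled comparison, 1180 with the GC gap and the block, 31 at 7 h, 254 at 7.5 h and 38 at 8.3 h, and 0 for each difference and for conversion rates. With the pairing by number, the X to autosome difference of −0.065 had an exact sign-flip permutation p of 0.0181 and that of the conversion rate, −0.0345, one of 0.0522.

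Depth limits what can be said of genes of a few CPM, and 4 libraries per group and time limit each time on its own.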
